A study of Mus musculus with 6 samples.

Results

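Mammary ductal epithelium genes were read in the inguinal white adipose tissue of female mice, a subcutaneous fat depot of the groin that encloses a mammary gland. The set was given as 31 mouse gene symbols, 13 luminal markers, 3 basal keratins and 15 genes shared by epithelia, and all 31 matched 1 row each among 25894 gene identifiers in the table. Per the series text, the animals were 15-week-old C57BL/6N females. There were 3 mice that went through 8 weeks of sleep fragmentation and 2 weeks of sleep recovery (here called fragmented, recovered, or FR, 1 to 3) and 3 control mice (control 1 to 3), for which the labels give no handling beyond "control". All were fasted for 10 h before the tissue was taken, and each library came from 1 mouse. No genotype, transgene or drug is named for either group. Values are normalised read counts, that is reads divided by 1 size factor per library, and libraries held between 15610201 and 19703569 reads.

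The mammary duct is a tube of an inner luminal layer, built on the keratins 8, 18 and 19, and an outer basal or myoepithelial layer, built on keratins 5 and 14. In a female mouse that has not nursed, these ducts branch through the fat pad, so a piece of inguinal fat can carry more or less duct depending on where it is cut. Keratins form the intermediate filaments, claudins and E-cadherin seal and join the cells, and Elf5, Ehf, Grhl2, Foxa1 and Tfap2c are transcription factors of epithelial cells. Keratins 5, 14 and 17 are also made by skin keratinocytes, and keratins 8, 18 and 19 by other simple epithelia.

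Promoter sequences, which hold no values of these libraries, are described first, though they were searched after the fits. The genes themselves were chosen with earlier results of these data known. RefSeq start sites on build GRCm38.p6 were at hand for 21 of the 31 genes, 1 start site each, and the 250 bases upstream were searched on both strands for 6 motifs. The E-box CACCTG, the letters bound by the Snail and Zeb repressors of epithelial genes, was in 14 of the 21 windows (66.7%) against 17.1% of 27025 windows of the same length over all genes in the RefSeq table. The Grainyhead-like motif AACNGGTT was in 3 of 21 (14.3% against 1.7%), and the AP-2 motif GCCNNNGGC in 5 (23.8% against 13.6%). The ETS motifs CCGGAAG and AGGAAGT were in 2 and 4 (9.5% against 7.1%, and 19.0% against 7.8%), and TATAAA was in 3 (14.3% against 13.0%). These matches describe letters in the windows and were not tested. Spint2 and Elf5 held 3 E-boxes each, and Muc1, Epcam and Rab25 held 2. The 6 windows below show a luminal gene, a basal gene, 3 shared epithelial genes with the E-box, and Cldn1, which held none and was the member whose values ran opposite to the rest. Wfdc18, Aqp5, Krt14, Cldn3, Cldn7 and Spint1 held none either, and all of these had higher fitted values, Aqp5 the highest of the members at 1.89. Each runs 5′ to 3′ on the gene's own strand up to the base before the start site, with CACCTG or its reverse complement CAGGTG in capitals. The windows are Muc1 at chr3:89228806-89229055 (plus strand), Krt5 at chr15:101712906-101713155 (minus), Epcam at chr17:87635729-87635978 (plus), Cldn4 at chr5:134946935-134947184 (minus), Spint2 at chr7:29281978-29282227 (minus) and Cldn1 at chr16:26371840-26372089 (minus).
Muc1: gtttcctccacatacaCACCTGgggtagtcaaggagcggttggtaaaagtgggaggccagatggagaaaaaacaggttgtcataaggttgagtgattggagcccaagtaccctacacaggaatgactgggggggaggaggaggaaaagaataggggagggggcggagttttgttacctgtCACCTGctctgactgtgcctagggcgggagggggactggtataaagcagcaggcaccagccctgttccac
Krt5: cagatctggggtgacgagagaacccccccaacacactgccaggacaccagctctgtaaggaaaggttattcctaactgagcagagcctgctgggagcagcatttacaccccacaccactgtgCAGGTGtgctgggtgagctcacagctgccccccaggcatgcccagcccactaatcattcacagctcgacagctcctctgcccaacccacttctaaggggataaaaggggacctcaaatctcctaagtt
Epcam: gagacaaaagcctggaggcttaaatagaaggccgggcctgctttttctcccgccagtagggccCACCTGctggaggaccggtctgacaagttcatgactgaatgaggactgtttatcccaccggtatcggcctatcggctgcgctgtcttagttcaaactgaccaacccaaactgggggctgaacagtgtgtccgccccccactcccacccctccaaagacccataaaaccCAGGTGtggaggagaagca
Cldn4: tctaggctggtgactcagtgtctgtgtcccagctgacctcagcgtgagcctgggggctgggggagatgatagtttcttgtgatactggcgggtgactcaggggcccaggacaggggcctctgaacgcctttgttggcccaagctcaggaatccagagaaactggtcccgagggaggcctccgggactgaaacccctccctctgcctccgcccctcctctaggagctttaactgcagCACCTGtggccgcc
Spint2: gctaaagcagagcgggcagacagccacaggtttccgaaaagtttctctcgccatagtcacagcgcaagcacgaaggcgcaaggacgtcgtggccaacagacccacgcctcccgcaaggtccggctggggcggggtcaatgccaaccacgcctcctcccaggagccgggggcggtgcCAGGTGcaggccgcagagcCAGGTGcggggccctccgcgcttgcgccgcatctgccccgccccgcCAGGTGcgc
Cldn1: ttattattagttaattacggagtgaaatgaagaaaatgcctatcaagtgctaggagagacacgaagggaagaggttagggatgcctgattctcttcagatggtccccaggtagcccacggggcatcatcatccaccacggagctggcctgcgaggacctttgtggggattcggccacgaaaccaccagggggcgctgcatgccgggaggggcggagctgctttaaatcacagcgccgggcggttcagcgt

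Some facts of the libraries touch every value that follows. B cell markers were high in FR 2, control 2 and control 3, with summed values of 7931, 20540 and 9777 over 8 genes, against 42 to 61 in the other libraries. Skeletal muscle markers summed to 84377 over 9 genes in FR 1, and other libraries had 182 to 11263. A library's deviation from the gene means followed GC content across genes, with a Spearman rho from 0.13 to 0.37 in FR 1 to 3 and control 1 and of -0.27 in both control 2 and control 3. Genes are not independent replicates, so these rhos only describe the libraries. Adipocyte genes, a check of the labelled tissue, were abundant in every library, with summed values from 317824 to 571869 over 8 genes.

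RNA of the ductal epithelium genes was measurable in every library. Summed over the 31 genes, normalised values were 36546, 49029 and 54662 in FR 1 to 3 and 56013, 15433 and 18428 in control 1 to 3. Control 1 had the highest sum of all 6 libraries, and controls 2 and 3 had the lowest. In whole tissue, fewer cells of a type and less RNA per cell cannot be told apart. All 31 genes passed the filter on low values, with at least 12 reads in every library.

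No member differed between the groups past the threshold. Of the 31, 0 had a limma adjusted p under 0.05, as did 0 of 22290 genes tested (0.0%), and members' adjusted p-values ran from 0.697 to 0.963. Fitted log2 differences, fragmented, recovered minus control on log2(value + 1), were above 0 for 30 of 31 members and for 51.6% of all genes. Their median was 0.60, against 0.02 over all genes tested. At an unadjusted limma p under 0.05 there were 3 members with higher values and 0 with lower, against 3.24% and 2.14% of all genes. The groups overlapped for every member: 0 of 31 had all fragmented, recovered mice above all controls, against 5.02% of all genes, and 0 had them below, against 3.58%. With edgeR on recovered reads, 0 of 31 members passed and 1 had an unadjusted p under 0.05, and with DESeq2 0 passed and 2 did. Of the 16141 genes in these fits, 754 had an unadjusted p under 0.05 with edgeR and 1103 with DESeq2.

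The 2 lowest libraries were controls 2 and 3 for 21 of 31 members, against 20.6% of all genes. Control 1 lay above all 3 fragmented, recovered mice for 11 members (19.2% of all genes), being the highest of all 6 libraries for each (12.7% of all genes), and within their range for the other 20 (64.9% of all genes). The spread of log2 values was larger among controls than among fragmented, recovered mice for 28 of 31 members, against 64.0% of all genes. Control 1 exceeded the mean of controls 2 and 3 by 3.24-fold in the median member, from 0.44-fold for Cldn1 to 9.15-fold for Wfdc18. Among the fragmented, recovered mice, FR 1 was the lowest for 24 of 31 members (34.8% of all genes). Without control 1, 10 of 31 members passed by limma, all with higher values, where 3.79% of all genes passed and 2.53% passed as higher. They were Krt8, Krt18, Krt19, Krt7, Wfdc18, Aqp5, Epcam, Cldn3, Cldn7 and Prss8, in a fit whose 2 controls were both low in these genes. limma-voom with quality weights, which weighs libraries by their scatter, called 9 of these 10, all but Wfdc18, where 4.33% of all genes were called higher. The median over all 31 was 1.15 both with quality weights and without control 1. Library weights were not examined, and these fits share libraries, so they are not independent. The median was 0.26 without control 2.

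**Figure D1:**
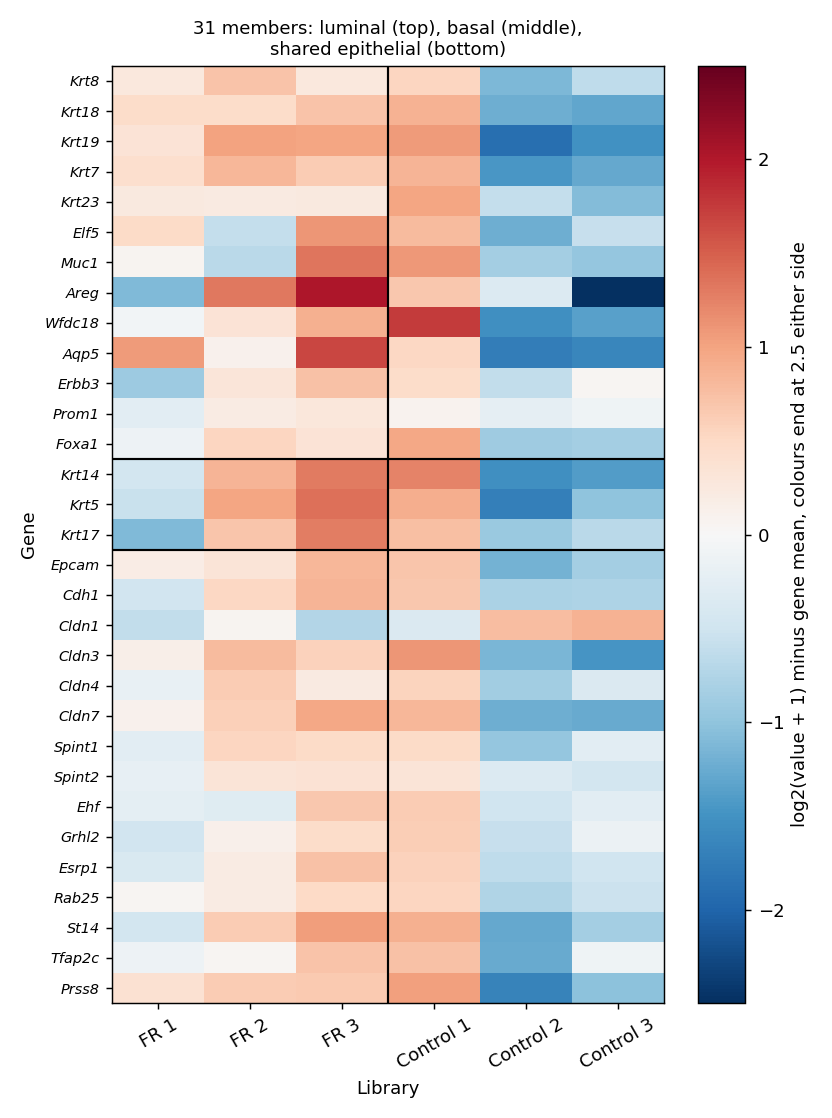
Deviation of each member from its mean over the 6 libraries, in log2(value + 1), with the 31 genes in rows and the libraries in columns (FR, fragmented, recovered). Controls 2 and 3 are the 2 lowest libraries for 21 genes, control 1 resembles the FR columns, and Cldn1 is highest in controls 2 and 3.

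Luminal keratins were the most abundant members. Per kilobase of merged exons, the mean normalised level was 3915 for Krt18, 3556 for Krt19 and 2898 for Krt8, followed by Epcam at 1071, and it was lowest for Krt23 at 21.0. Krt8, which pairs with keratin 18 in simple epithelia, had normalised values of 6241, 8449 and 6204 in FR 1 to 3 and 7466, 2360 and 3326 in control 1 to 3. All 3 fragmented, recovered mice lay above controls 2 and 3, and control 1 lay among them. The log2 difference was 0.83 (SE 0.40, limma adjusted p = 0.697). Krt18 had 6555, 6608 and 7835 in FR 1 to 3 and 8760, 2045 and 1949 in the controls, with control 1 the highest library. Its difference was 1.09 (SE 0.51).

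Krt19, a keratin of the luminal layer that forms filaments with keratin 8, had 6285, 9968 and 9891 in FR 1 to 3 and 10356, 1335 and 1743 in the controls. Here the range among controls was 7.76-fold and enclosed the whole fragmented, recovered range. The mean was 8715 ± 2105 (SD, n = 3) against 4478 ± 5095 in controls, a log2 difference of 1.56 (SE 0.65). Krt7, another simple epithelial keratin, had 1357, 1801 and 1567 in FR 1 to 3 and 1834, 368.5 and 418 in the controls, a difference of 1.25 (SE 0.53). Both reached an unadjusted limma p under 0.05, at 0.039 and 0.041, and neither passed after adjustment (0.697 for both). Krt7 was the only member to pass when control 1 was left out and trends on GC content and length were also removed, with a limma adjusted p of 0.026, against 0.166% of all genes called in that fit. Krt23, the least abundant member, had values of 35.2, 34.9 and 35.2 in FR 1 to 3 and 59.7, 19.2 and 13.4 in the controls. The fragmented, recovered mice were nearly equal for this gene, and the controls lay on both sides of them.

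**Figure D2:**
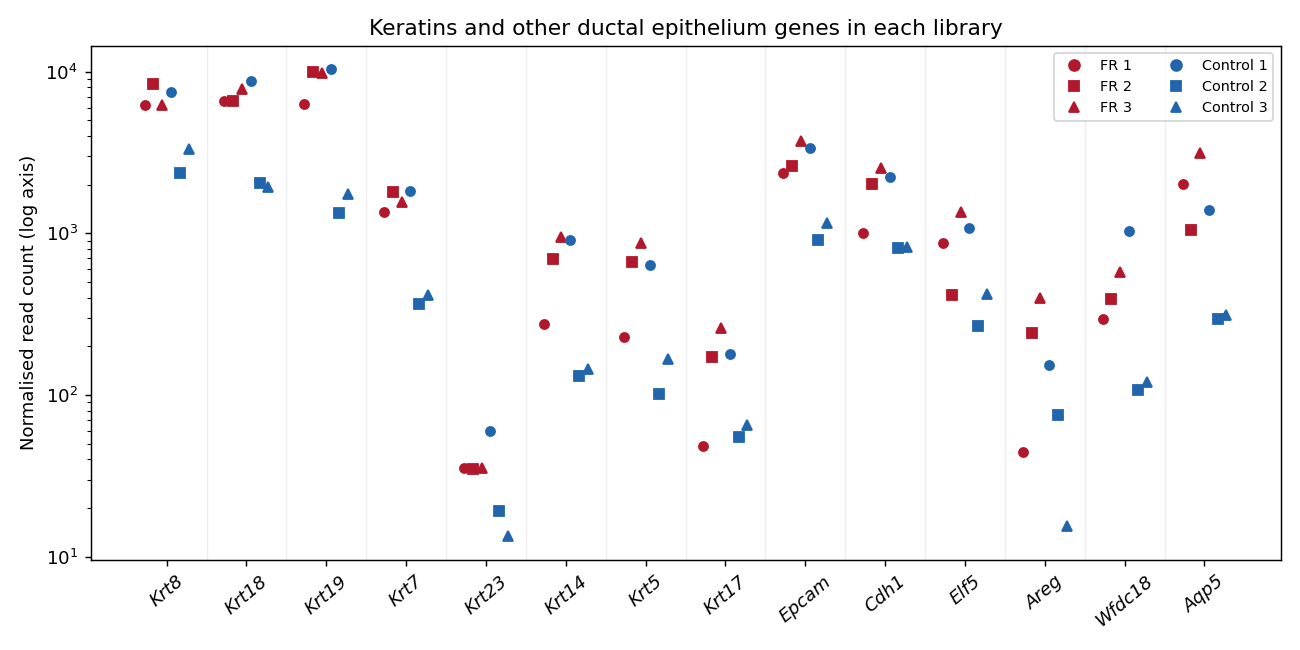
Normalised read counts on a log axis for 14 members, 1 point per library, red for fragmented, recovered (FR) and blue for control. For each of the 5 luminal keratins on the left, controls 2 and 3 lie below the other 4 libraries, and control 1 lies with or above the FR points.

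The basal keratins had the same lowest libraries apart from Krt17, and differed among the fragmented, recovered mice. Krt14, the main keratin partner of the basal layer, had 276.8, 694.1 and 945.3 in FR 1 to 3 and 905.9, 131.1 and 144.8 in the controls. Krt5, its type II partner, had 228.1, 669.8 and 876.7 in FR 1 to 3 and 635.2, 101.7 and 167.1 in the controls. FR 1 stood well below FR 2 and 3 for both. Krt17, a basal keratin that is also made in hair follicles, had 48.7, 171.4 and 259.1 in FR 1 to 3 and 179.1, 55.4 and 65.7 in the controls, so that FR 1 was the lowest library of all. The log2 differences were 1.13 (SE 0.72) for Krt14, 1.21 (SE 0.68) for Krt5 and 0.57 (SE 0.67) for Krt17, and none passed (limma adjusted p from 0.697 to 0.790). How counting treated reads shared by Krt14 or Krt17 and their near-identical relatives was not tested. Single basal keratin values therefore carry that uncertainty.

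The basal to luminal ratio therefore varied inside each group. Krt14 stood at 0.0444, 0.0821 and 0.152 of the Krt8 value in FR 1 to 3 and at 0.121, 0.0556 and 0.0435 in control 1 to 3. FR 1, whose Krt8 value was close to that of FR 3, had a ratio near those of controls 2 and 3. The log2 ratio averaged -3.61 ± 0.89 (SD, n = 3) over FR 1 to 3 and -3.91 ± 0.77 over the controls, so the groups differed by less than either spread. Krt5 over Krt18 gave 0.0348, 0.101 and 0.112 in FR 1 to 3 and 0.0725, 0.0498 and 0.0857 in the controls, and FR 1 was again the lowest of the fragmented, recovered mice. Keratin pairs within a layer varied less between libraries. Krt14 over Krt5 lay between 0.867 and 1.43 and Krt8 over Krt18 between 0.792 and 1.71.

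**Figure D3:**
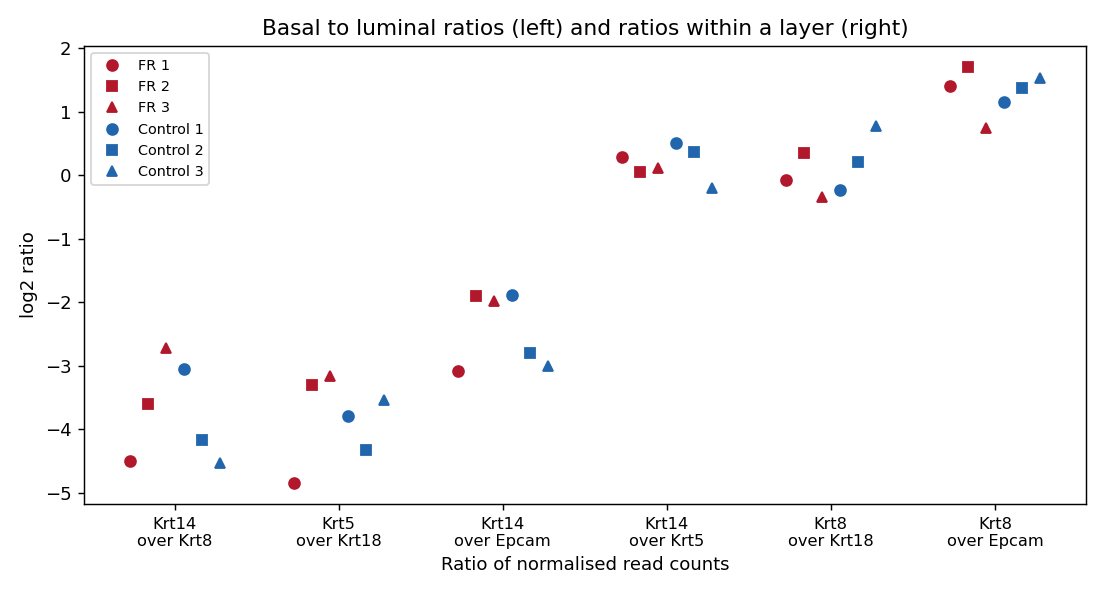
log2 ratios of normalised read counts in each library, basal over luminal or epithelial on the left 3 positions and within a layer on the right 3. FR 1 and controls 2 and 3 have the 3 lowest values of Krt14 over Krt8 and of Krt14 over Epcam, while Krt14 over Krt5 spans only -0.21 to 0.51. For Krt5 over Krt18 the 3 lowest are FR 1, control 2 and control 1, and control 3 (-3.54) lies above control 1 (-3.79).

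Skin markers were read beside the basal keratins. Of 16 skin keratinocyte and hair follicle genes tested, 15 had higher and 1 lower fitted values, with a median log2 difference of 1.79 (1.37 with GC and length trends removed), and none passed by limma. Their median deviation from the gene mean was 0.22, 2.00 and -0.29 in FR 1 to 3, 0.36 in control 1 and -1.22 in each of controls 2 and 3. That shared median fell on Krt27 and Krt35, hair follicle keratins at 175.2 and 147.9 in FR 2 and at 0 in every other library. It was therefore set by genes at 0, and does not place controls 2 and 3 below FR 1, FR 3 and control 1 for those genes. The summed skin value was 2386 in FR 2 and ran from 86.9 to 449 elsewhere. Krt71, a hair follicle keratin, had 455.1 in FR 2 and at most 3.61 elsewhere. Lgals7, a galectin of stratified epithelia, had 88.1, 240.5 and 104.7 in FR 1 to 3 and 224.9, 29.4 and 3.34 in the controls. Krt10, a keratin of the upper epidermis, ran from 27.1 to 67.7, and Sbsn, a protein of the upper epidermis, from 24.5 to 53.9. Krt1, the type II partner of keratin 10, was at most 3.61 and Krt77 at most 1.81, and both were at 0 in controls 2 and 3. Controls 2 and 3 were the 2 lowest libraries for 6 of the 16 genes, Krt10 and Lgals7 among them. What part skin had in the basal keratin values was not tested. Of the mesothelial list, a covering layer that makes keratins 8, 18 and 19, Wt1 was at 1.52 in FR 2 and at 0 in the other libraries, and Upk1b was at most 11.7. The rest of that list was present: Gpm6a ran from 77.8 to 353.8, Muc16 from 73.6 to 751.2, Lrrn4 from 18.9 to 62.2 and Bnc1 from 2.07 to 40.6. Of 5 mesothelial genes tested, 4 had higher and 1 lower fitted values, with a median of 0.13. Gpm6a had -1.10 (SE 0.55) and Muc16 0.13 (SE 0.73), and what part mesothelium had in the luminal keratin values was not tested.

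Of all members, Areg, Aqp5 and Wfdc18 had the widest ranges between libraries, and those of the other luminal secretory and surface genes were narrower than that of Krt5. Aqp5, a water channel of secretory epithelia, had the smallest unadjusted p of the members. Its values were 2032, 1049 and 3121 in FR 1 to 3 and 1400, 293.9 and 314.1 in the controls, so control 1 lay above FR 2. The log2 difference was 1.89 (SE 0.60, limma adjusted p = 0.697). Wfdc18, a secreted protein with a whey acidic protein domain, had 295.5, 392.2 and 579.7 in FR 1 to 3 and 1041, 107.4 and 120.3 in the controls. Control 1 was 9.15-fold the mean of the other controls, and the group means were 422.4 and 423.0. The difference of 0.77 (SE 0.76) on the log2 scale therefore came with equal arithmetic means, and DESeq2 gave -0.0023.

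Areg encodes amphiregulin, the ligand that relays the estrogen signal in ductal growth through the receptor Egfr. It had 44.6, 242.0 and 397.3 in FR 1 to 3 and 154.5, 75.7 and 15.6 in the controls, a range of 25.5-fold between libraries that was the widest of any member. FR 1 lay below controls 1 and 2, and the log2 difference was 1.49 (SE 0.94, limma adjusted p = 0.697). It was 0.59 without control 3, 0.85 without FR 3 and 2.42 without FR 1. Erbb3, a receptor of the same family that binds neuregulins, had a difference of 0.08 (SE 0.43), and its sign turned without FR 2, FR 3 or control 2 (-0.06, -0.27 and -0.22). Prom1, a membrane protein of luminal hormone-sensing cells, was the flattest member, with 1.46-fold between its highest and lowest library and a difference of 0.16 (SE 0.25). Muc1, a cell-surface mucin, had 0.49 (SE 0.66). Of the 11 EGF ligands, receptors and shedding enzymes tested besides Areg and Erbb3, 4 had higher and 7 lower fitted values, none passed, and their median was -0.20. Egfr itself had -0.20 (SE 0.29), and the 2 most abundant, Nrg4, a neuregulin, and Adam17, which sheds amphiregulin, had -0.22 (SE 0.28) and -0.25 (SE 0.25).

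The adhesion genes followed the luminal keratins except for 1 claudin. Epcam, a cell-surface marker of epithelia, had 2352, 2594 and 3722 in FR 1 to 3 and 3359, 915.6 and 1157 in the controls, a log2 difference of 0.89 (SE 0.45). Cdh1, which encodes E-cadherin, had 1013, 2025 and 2551 in FR 1 to 3 and 2241, 808.2 and 822.1 in the controls, a difference of 0.60 (SE 0.46). Both had control 1 inside the fragmented, recovered range and controls 2 and 3 below it, and neither passed (limma adjusted p = 0.697 and 0.714). Claudins are the strands of tight junctions. Cldn3 had a difference of 1.00 (SE 0.58), Cldn7 of 1.10 (SE 0.54) and Cldn4 of 0.46 (SE 0.37).

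Cldn1 was the member with lower fitted values, at -0.87 (SE 0.42, limma adjusted p = 0.697). It had 114.0, 183.6 and 104.7 in FR 1 to 3 and 137.5, 301.8 and 323.1 in control 1 to 3. Controls 2 and 3 were here the highest libraries, the only member for which they were (18.0% of all genes). The ratio of Cldn1 to Cldn3 was between 0.0959 and 0.159 in FR 1 to 3 and control 1, and 0.996 and 1.34 in controls 2 and 3. Cldn1 also had the lowest GC content of the 31 genes, 39.0%, and Aqp5, the member with the largest difference, the highest, 64.0%.

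**Figure D4:**
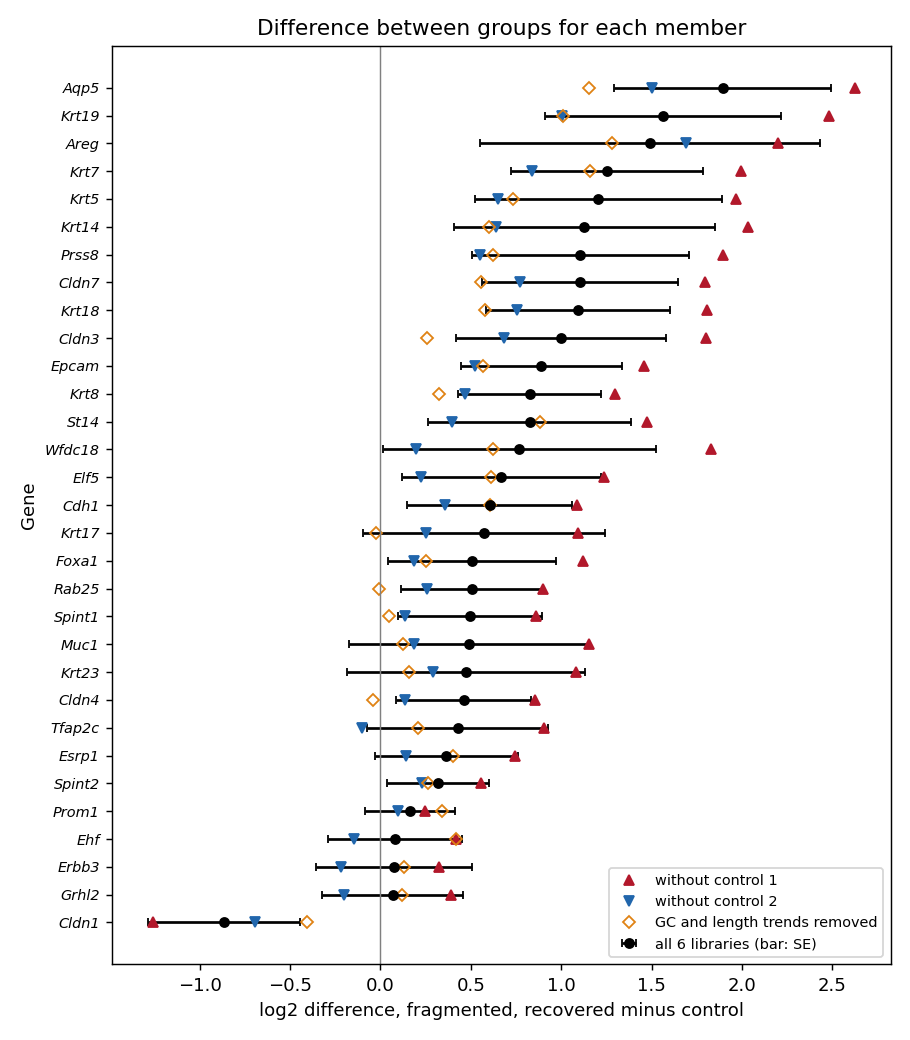
log2 difference, fragmented, recovered minus control, for each member (black, with SE) and the same value without control 1, without control 2 and with GC content and length trends removed. Leaving out control 1 moves every member away from 0, while Cldn1 is the member below 0 with all 6 libraries.

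GC content moved with these differences. Across the 31 members, which share the same 6 libraries, the fitted difference and GC content had a Pearson r of 0.66 and a Spearman rho of 0.56, and without Cldn1 0.55 and 0.52. Over all genes tested the rho was 0.38. With each library's trends on GC content and transcript length removed, the median member difference was 0.40 instead of 0.60, with 27 of 31 above 0, and the median over all genes was -0.03. Krt17, Rab25 and Cldn4 then had -0.024, -0.0056 and -0.044. Krt7 and St14 hardly moved, at 1.16 and 0.88, and Krt8 went from 0.83 to 0.33. The members at the ends of the GC range also moved towards 0, Cldn1 to -0.41 and Aqp5 to 1.15.

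The transcription factors had fitted differences from 0.07 to 0.67. Elf5, the ETS factor that sets the alveolar luminal fate, had 877.1, 414.9 and 1351 in FR 1 to 3 and 1087, 266.8 and 420.0 in the controls. FR 2 lay below control 3 here, and the log2 difference was 0.67 (SE 0.55, limma adjusted p = 0.730). Foxa1, a pioneer factor of hormone-sensing luminal cells, had 0.51 (SE 0.46). Tfap2c, the AP-2 gamma factor, had 0.43 (SE 0.50). Ehf, another epithelial ETS factor, and Grhl2, which keeps junction genes on, had 0.08 (SE 0.37) and 0.07 (SE 0.39), and both turned sign without control 2 (-0.15 and -0.20) and without FR 3 (-0.24 and -0.14). Esrp1, an epithelial splicing regulator, had 0.36 (SE 0.40), and Rab25, an epithelial vesicle transport protein, 0.51 (SE 0.39). The ratio of Elf5 to Foxa1 was 0.587, 0.175 and 0.653 in FR 1 to 3 and between 0.304 and 0.461 in the controls.

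The membrane protease pair and its inhibitors had fitted differences of 1 sign. St14, which encodes matriptase, had 0.83 (SE 0.56) and Prss8, which encodes prostasin, 1.11 (SE 0.60). Their inhibitors Spint1 and Spint2 had 0.50 (SE 0.40) and 0.32 (SE 0.28), and none of the 4 passed (limma adjusted p from 0.697 to 0.750). Of 12 other genes of this network tested, 10 had higher and 2 lower fitted values, with a median of 0.17. The most abundant of them were Tmprss2, a related membrane protease, at 0.14 (SE 0.39), and Met, the receptor for hepatocyte growth factor, at -0.62 (SE 0.29).

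Other genes of the gland were read from lists fixed with the members. Of 27 further epithelial junction, polarity and regulator genes, 24 had higher and 3 lower fitted values with a median of 0.51, none passed, and controls 2 and 3 were the lowest libraries for 15. Jup, plakoglobin of desmosomes and adherens junctions, had 0.64 (SE 0.27). Its values in all fragmented, recovered mice lay above those in all controls, as for 5.02% of all genes. Perp, a desmosome protein, had 0.57 (SE 0.38), and its groups overlapped. Of 14 further basal genes, 12 had higher and 2 lower values with a median of 0.54. Trp63, the p63 factor that maintains basal cells, had 0.23 (SE 0.50), Oxtr, the oxytocin receptor of myoepithelium, 0.63 (SE 0.49), and Itga6, a laminin receptor also made outside the gland, -0.19 (SE 0.32).

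Of 8 hormone-sensing genes, 3 had higher and 5 lower fitted values, with a median of -0.19. Pgr, the progesterone receptor, had 694.6, 708.5 and 2714 in FR 1 to 3 and 818.5, 184.2 and 296.3 in the controls, a difference of 1.63 (SE 0.63, limma adjusted p = 0.697). FR 3 stood apart with the highest value. Esr1, the estrogen receptor, had -0.47 (SE 0.32), Prlr, the prolactin receptor, -0.16 (SE 0.34), and Cited1, a cofactor of the estrogen receptor, -0.43 (SE 0.35). Esr1 and Prlr are also made by fat cells and stroma. Of 8 luminal progenitor genes, 6 had higher and 2 lower values with a median of 0.43. Kit, a receptor of these progenitors and of mast cells, had -0.42 (SE 0.43), and Lcn2 and Ltf, secreted iron-binding proteins that neutrophils also make, had 0.90 (SE 0.59) and 0.04 (SE 0.69). Of 7 milk genes, 4 had higher and 3 lower fitted values, with a median of 0.06, and none passed. The caseins Csn1s1 and Csn2 had -0.91 (SE 1.40) and -0.73 (SE 1.43) at values of at most 42.5. Csn3, kappa-casein, had 3912, 937.6 and 2710 in FR 1 to 3 and 2326, 388.8 and 508.0 in the controls, a difference of 1.48 (SE 0.69). Glycam1, which lymph node vessels make too, was at 5484, 1968 and 402.2 in FR 2, control 2 and control 3 and at 0 elsewhere.

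Luminal and B cell genes ordered the libraries in nearly opposite ways, except for FR 2. The B cell median deviation was -4.27 in control 1, -3.78 in FR 3 and -3.25 in FR 1. It was 3.60 in control 3, 3.62 in FR 2 and 4.67 in control 2. FR 2, control 2 and control 3 were the libraries high in B cell genes, and the median luminal deviation was 0.33 in FR 2 and -1.13 and -1.09 in controls 2 and 3. In the libraries low in B cell genes it was 0.24 in FR 1, 0.73 in FR 3 and 0.86 in control 1. With the B cell score as a covariate the median member difference was 0.35, with 26 of 31 above 0, and the luminal median was 0.25, against 0.77 without it. Adipocyte genes were also at their lowest medians in controls 2 and 3, at -0.62 and -0.41, and the remaining libraries ran from -0.08 to 0.68. Their summed values gave another order, with FR 2 the lowest at 317824, FR 3 at 381118, and controls 2 and 3 at 357982 and 424936. Of 8 adipocyte genes, 7 had higher and 1 lower values with a median of 0.37, or 0.03 with GC and length trends removed. Adipoq and Cfd, both secreted by adipocytes, had 0.41 (SE 0.40) and 0.86 (SE 0.55). Plin1 and Retn had 0.02 (SE 0.30) and 0.03 (SE 0.43). Lpl had -0.58 (SE 0.52), with all fragmented, recovered mice below all controls, as for 3.58% of all genes. The B cell receptor genes Cd79a and Cd79b and the B cell surface gene Ms4a1 had -1.48 (SE 2.19), -2.34 (SE 1.84) and -3.81 (SE 2.68), and the muscle genes Acta1 and Pvalb 1.39 (SE 1.57) and 0.89 (SE 2.41). What part lymph node, muscle and fat content had in the epithelial values was not tested beyond these fits.

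**Figure D5:**
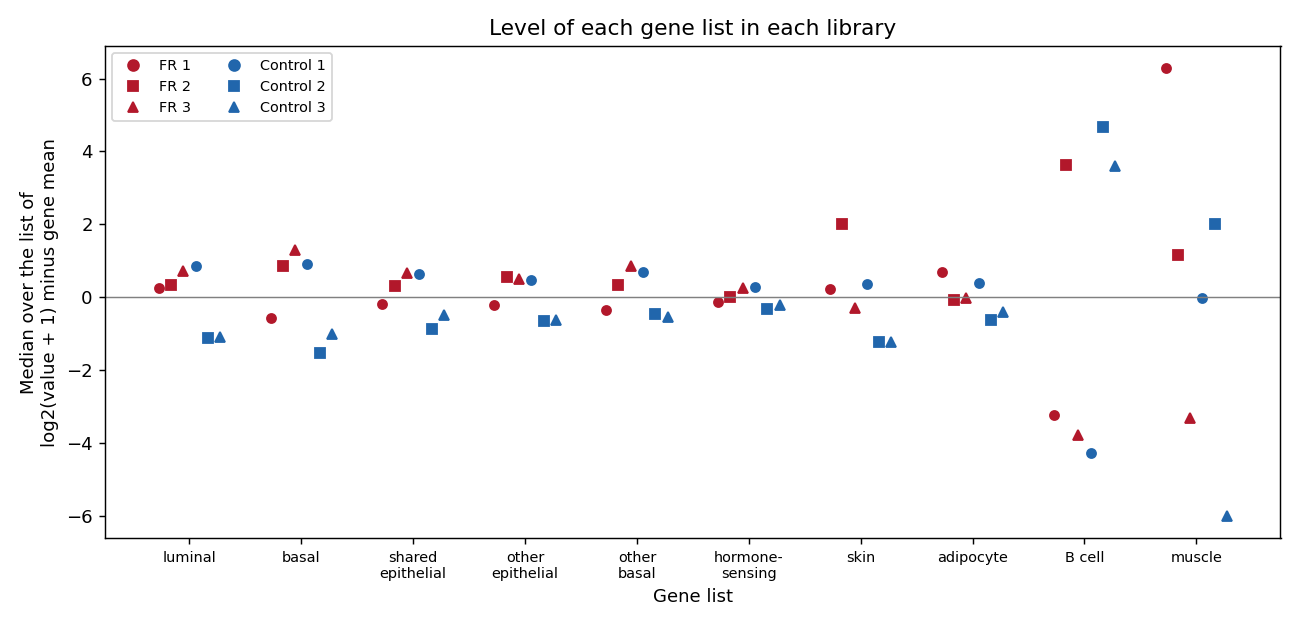
Median over each gene list of log2(value + 1) minus the gene mean, 1 point per library. Controls 2 and 3 are lowest for the luminal, basal and shared epithelial lists. Their skin medians, at -1.22 each, are set by genes at 0, and FR 2 is the highest for skin genes. The B cell list is high in FR 2 and controls 2 and 3, and the muscle list is highest in FR 1.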

How the data were processed

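Each of 6 inguinal fat samples, 3 per group, gave 1 library. Per the submitters' processing notes, CASAVA, HISAT2 2.0.5, featureCounts 1.5.0-p3 and build mm8 were used; annotation and strand setting are not given in the sources used here. The deposited signal values were whole reads scaled by a library-specific factor: 100% were whole multiples (tolerance 0.02) of the smallest non-zero value of their column. For 33 identifiers no symbol matched.

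limma 3.58.1 (R 4.3.3) with an intensity trend was run on log2(value + 1), which understates changes of low genes, keeping 22290 genes whose mean reached 1. p-values were adjusted by Benjamini-Hochberg over all of them (threshold 0.05). edgeR 4.0.16 and DESeq2 1.42.0 ran on recovered reads of 16141 genes and called 0 and 2, with 74 DESeq2 values NA. At an unadjusted p under 0.05, limma had 1201 genes, edgeR 754 and DESeq2 1103. Scripts were tested on simulated data. GC content (longest transcript, known for 99.87% of genes) and merged exon length came from GENCODE M21, GRCm38; trends were splines of 4 degrees of freedom. p-values measure only the spread between these mice.

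The members and lists were chosen with earlier results of these data known, so no p was adjusted over a list and no set test was run. Named were all members (per-library values for 12 fixed by name and any with an unadjusted p under 0.05), the 2 highest genes per kilobase of each companion list and a fixed few. Krt1, Krt77, Sbsn, Krt27, Krt35, Wt1, Upk1b, Lrrn4, Bnc1, Csn1s1, Csn2, Lpl, Plin1 and Retn were named after values were seen. Library values of Krt23, Cldn1, Pgr, Csn3, Glycam1 and Lgals7 were also given after values were seen. Msln, Upk3b, Ereg, Flg, Flg2 and Tnnc2 were not analysed here.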

Additional observations from a re-analysis of the deposited data

How the results depend on the processing

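With all 6 libraries, limma gave 0 members and 0 genes past the threshold for pseudocounts of 0.5 and 5, without the filter, with a mean of at least 10, with library size scaling, with the B cell covariate and with GC and length trends removed. DESeq2 called 2 genes, neither a member, and limma-voom with quality weights called 1023 genes and 9 members, 4.33% of genes being called higher. Leaving out each library in turn gave between 0 and 844 genes and between 0 and 10 members, the highest of both without control 1 and 0 in each other case. Without control 1 and with trends removed, 37 genes and 1 member passed. Over the libraries left out, the number of members above 0 ran from 26 to 30, the member median from 0.26 to 1.15, the luminal median from 0.29 to 1.30 (0.77 with all) and the basal median from 0.64 to 1.96 (1.13 with all). The member median was more than 1.5 times its full value without control 1 and less than it by over that factor without control 2, and the basal median likewise without control 1 (1.96), control 2 (0.64) and control 3 (0.71). Without FR 3 the luminal and member medians were 0.51 and 0.46. Without FR 1 and control 2, the libraries highest in muscle markers, the member median was 0.43. The basal median was 0.72 with edgeR, 0.70 with DESeq2, 1.94 with quality weights, 0.72 with the B cell covariate and 0.60 with trends removed, and the luminal median was 0.25 with that covariate. Library size scaling moved the median of all genes to 0.14 and of members to 0.72.

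Signs of small differences turned. With one library left out at a time, Ehf ran from -0.24 to 0.42, Erbb3 from -0.27 to 0.55, Grhl2 from -0.20 to 0.39, Muc1 from -0.058 to 1.15 and Tfap2c from -0.10 to 0.90. With the B cell covariate, Muc1, Erbb3, Ehf and Grhl2 had -0.054, -0.018, -0.18 and -0.093. With trends removed, Krt17, Rab25 and Cldn4 had -0.024, -0.0056 and -0.044. DESeq2 gave Wfdc18 -0.0023, and without the libraries highest in muscle markers Ehf had -0.0025. The cause of these changes was not tested.

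With the replicate number as a block, 0 genes and 0 members passed and the member median stayed at 0.60. Nothing in the labels pairs the mice, and same-numbered mice had correlations of deviations of 0.18, 0.39 and 0.04, so the numbers were not taken as pairs. Not every mouse correlated best with its own number: FR 3 had 0.21 with control 1.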
